A study of Fukomys damarensis with 47 samples.

Results

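Damaraland mole-rats (Fukomys damarensis) live in colonies in which 1 female, the queen, breeds. The genes described here encode immune receptors, cytokines and chemokines, and their RNA was counted in cultured marrow cells enriched for mesenchymal stromal cells (bMSCs). The genes were chosen by name, from the 1148 genes that had a symbol in the rows at hand of a supplementary gene table, as those whose symbols begin with CD or IL and a digit, CCL, CCR, CXC, CSF, TLR, TNF, IFN, IRF, FCER, FCGR, PTPRC, CLEC, SIGLEC, NLR, C1Q or LILR. That gave 19 genes, of which 17 reached at least 2 CPM (the count scaled to the size of its library) in at least 25% of the 47 libraries and so were among the 11047 genes tested. The other two, TNFSF13 and CD27, members of the TNF ligand and TNF receptor families, reached 2 CPM in 8 libraries each, where 12 were needed, with 541 and 603 counts over all libraries, and CD27 had no count in 23 libraries.

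The libraries came from 16 captive females of 8 natal colonies, 2 sisters per colony (with different fathers in colonies G1 and G4), aged 1003 to 1232 days. There were 5 queens, each paired with a male and breeding, 7 helpers left in their natal colony, and 4 solitaires housed alone; helpers and solitaires, neither of which bred, are together called nonbreeders. Cells from the pooled long bones gave 26 libraries of 16 animals and cells from the pooled lumbar vertebrae 21 libraries of 14 animals. Each culture was treated for 24 hr with vehicle or with 10 nM estradiol. The cells were cultured before RNA was taken, so the levels are those of plated cells and not of the marrow in the animal, and the vertebrae, unlike the long bones, had been digested with collagenase. The colony is read here from the first 2 characters of the animal's name and entered the tests of status as a block, so that these rest on pairs of sisters of unlike status.

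Pattern recognition receptors bind conserved parts of microbes or of damaged cells, and cytokine receptors pass on signals from other cells, many of them through NF-kB or STAT proteins, while chemokine receptors act through G proteins. In marrow, macrophages, their precursors and lymphocytes carry most of these receptors, but stromal cells also express several of them, such as the receptors of the interleukin-1 and interleukin-6 families. The same cytokines act on osteoclasts, which resorb bone and descend from the myeloid lineage.

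Libraries held 5329563 to 16327339 counts. A list of leukocyte genes, of which 14 of 15 were tested (LAPTM5, CORO1A, LCP2 and others), summed to 487 to 3917 CPM in the long bones of queens and to 299.6 to 1367 CPM in those of nonbreeders, so genes of blood-derived cells were read in every culture. The 2 queens with the highest sums were MAF006, at 3917 CPM, and NOF009, at 2368 CPM; the long bone culture of MAF006 also had the lowest sum of 17 stromal genes, 401 CPM, where nonbreeders had 1822 to 5277 CPM. In bulk RNA, fewer cells of a type and less RNA per cell cannot be told apart.

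In long bones, 9 of the 17 immune genes differed between queens and nonbreeders at an unadjusted p under 0.05 (edgeR's quasi-likelihood test, 5 queens and 11 nonbreeders), 8 of them higher in queens and 1 lower. Over all genes tested the share was 8.69%, with 6.21% higher and 2.48% lower. At a false discovery rate (FDR) of 20%, at which 1.48% of all genes passed (1.4% higher, 0.0724% lower), 3 immune genes passed, CLEC4E and CCL8, higher in queens, and IL13RA2, lower. No gene of the 11047 passed at 10%. The median log2(fold change) was 0.69 over the 17 genes and 0.02 over all genes. In lumbar vertebrae (4 queens and 10 nonbreeders), 6 of the 17 had an unadjusted p under 0.05, 5 of them higher, where 3.42% of all genes did (2.63% higher, 0.797% lower). MAF006 entered the vertebrae with an estradiol library only. None passed an FDR of 20% there by edgeR, while 3 did by DESeq2 and 4 by a voom model of all libraries. Of all 11047 genes, 128 passed by DESeq2 and 222 by voom.

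**Figure D1:**
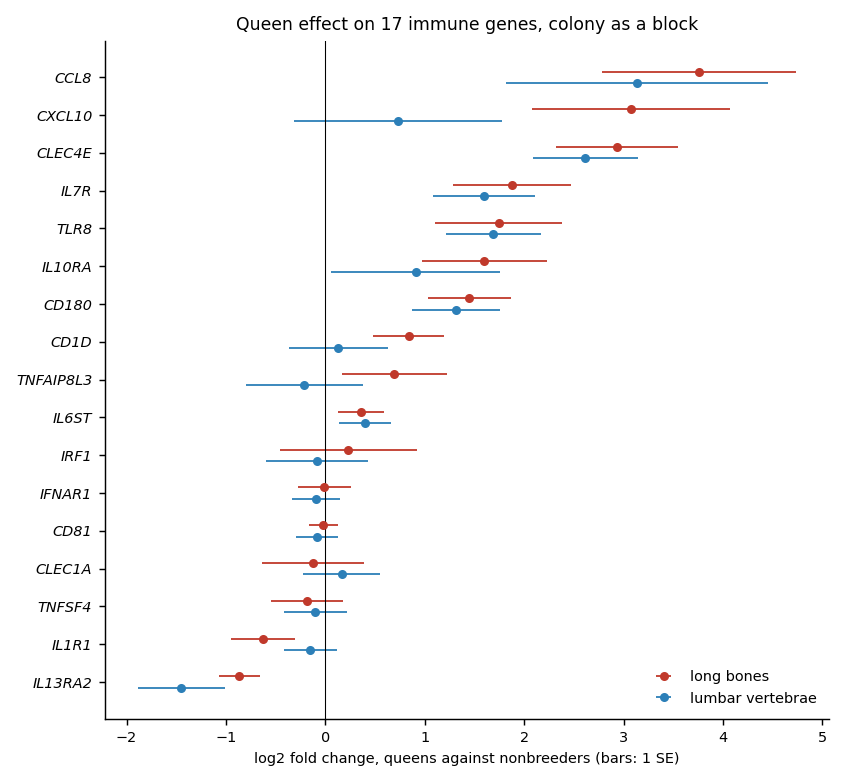
The log2(fold change) of each of 17 immune genes in queens against nonbreeders, with 1 standard error on each side, in long bones (red) and lumbar vertebrae (blue). CCL8, CLEC4E, IL7R, TLR8 and CD180 lie above 0 in both bones and IL13RA2 lies below 0 in both.

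Of the pattern recognition receptors, CLEC4E showed the largest difference. CLEC4E (Mincle) is a C-type lectin of macrophages that binds mycobacterial glycolipids. In long bones it measured 198 CPM in MAF006, 190 in NOF009, 40.5 in WAF014, 12.98 in LAF007 and 0.625 in DVF007, and in nonbreeders it ran from 0.569 through a median of 16.6 to 76.4 CPM. The groups overlapped, but each queen was above her own sister, in 5 of 5 pairs. The widest gap was in colony WA (40.5 against 0.925 CPM) and the narrowest in colony DV, where both sisters were under 1 CPM. Its log2(fold change) was 2.93 ± 0.61 (SE, adjusted p = 0.134, edgeR). In vertebrae the queen was higher in 4 of 4 pairs and the log2(fold change) was 2.61 ± 0.53 (adjusted p = 0.700). It ranked 8 of 11047 by p there.

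CD180 and TLR8 moved with it at a smaller size. CD180 is a Toll-like receptor homologue of B cells and myeloid cells, and TLR8 senses single-stranded RNA in endosomes. CD180 measured 24.6 CPM in NOF009, 17.4 in MAF006, 3.77 in WAF014, 1.25 in DVF007 and 1.01 in LAF007 in long bones, against 0.389 to 14.6 CPM in nonbreeders, and the queen was the higher sister in 5 of 5 pairs. Its log2(fold change) was 1.45 ± 0.42 in long bones (adjusted p = 0.239, edgeR) and 1.31 ± 0.44 in vertebrae (adjusted p = 0.999), where the queen was higher in 3 of 4 pairs. TLR8 measured 20.9, 12.3, 5.55, 1.57 and 0.208 CPM in the long bones of NOF009, MAF006, WAF014, LAF007 and DVF007 and 0.0771 to 10.4 CPM in nonbreeders. Here 4 of 5 queens exceeded their sisters, the exception being DVF007, with 2 counts against 8. For TLR8 the log2(fold change) was 1.74 ± 0.64 in long bones (adjusted p = 0.428) and 1.69 ± 0.48 in vertebrae (adjusted p = 0.782), where all 4 queens were higher. CLEC1A, a C-type lectin of endothelial and dendritic cells, had a log2(fold change) of -0.12 ± 0.51 in long bones and 0.16 ± 0.39 in vertebrae, and the queen was higher in 2 of 5 and 2 of 4 pairs.

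**Figure D2:**
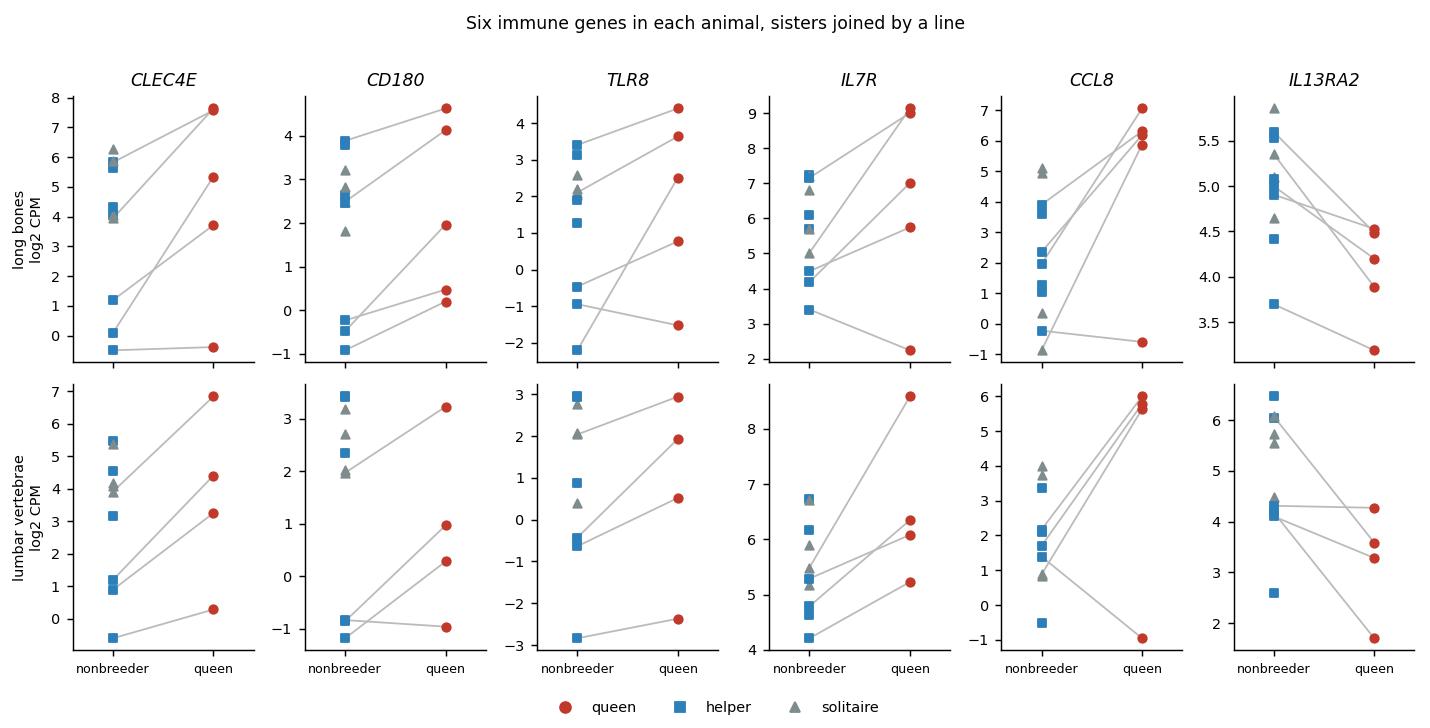
The log2 CPM of 6 immune genes in each animal, nonbreeders at the left and queens at the right of each panel, long bones above and lumbar vertebrae below; a line joins a queen to the sister from her colony. For CLEC4E the lines rise in 5 of 5 and 4 of 4 pairs and for IL13RA2 they fall in 5 of 5 and 4 of 4, while DVF007 is the queen at the foot of the CCL8 panels.

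Of the chemokines, CCL8 was higher in the long bones of queens at an FDR of 20% and CXCL10 at an unadjusted p under 0.05. CCL8 (MCP-2) attracts monocytes and T cells, and CXCL10 is induced by interferon and attracts activated T cells. CCL8 measured 133 CPM in WAF014, 79.1 in NOF009, 72.5 in LAF007 and 58.4 in MAF006 in long bones. DVF007 had 0.521 CPM, and nonbreeders ran from 0.405 through a median of 3.74 to 33.9 CPM. With treatments added, 4 queens thus lay above all 11 nonbreeders and the fifth lay among the lowest animals. The place of MAF006 rested on her estradiol library, with 107.6 CPM against 12.6 CPM in vehicle, where G1F022, WEF001 and G1F025 had 14.8, 30.6 and 32.5 CPM, so that 3 queens lay above all nonbreeders in vehicle libraries. CCL8 had a log2(fold change) of 3.76 ± 0.98 (adjusted p = 0.197, edgeR), and 3.38 in vehicle libraries alone (adjusted p = 0.105). In vertebrae LAF007, MAF006 and WAF014 had 49.5 to 63.8 CPM, above the nonbreeders' highest value of 15.8 CPM, and DVF007 had 0.375 CPM. There the log2(fold change) was 3.13 ± 1.31 (adjusted p = 0.999).

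CXCL10 had a log2(fold change) of 3.08 ± 0.99 in long bones (adjusted p = 0.364, edgeR), which rested on 2 colonies. NOF009 had 49.7 CPM against 6.48 in her sister, and MAF006 had 7.06 against 0.710. The value of MAF006 came from her estradiol library, with 90 counts, while her vehicle library had 1 count and that of her sister 7. In vehicle libraries alone the log2(fold change) of CXCL10 was 1.83, with an unadjusted p of 0.198 (edgeR). In colonies DV and LA both sisters had no CXCL10 count in long bones, and in colony WA the queen had 3 counts and her sister none, so that no fold change can be given for these pairs. In vertebrae the difference was 0.73 ± 1.05 on the log2 scale (adjusted p = 0.999).

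The 6 cytokine receptor genes did not move together. IL7R, the receptor of interleukin-7 on lymphocytes and their precursors, measured 561 CPM in MAF006, 514 in NOF009, 129 in WAF014, 53.4 in LAF007 and 4.58 in DVF007 in long bones, against 10.4 to 150 CPM in nonbreeders. MAF006 and NOF009 lay above every nonbreeder and DVF007 below every one. Its log2(fold change) was 1.88 ± 0.59 in long bones (adjusted p = 0.307, edgeR) and 1.60 ± 0.51 in vertebrae (adjusted p = 0.934), with the queen higher in 4 of 5 and 4 of 4 pairs. IL10RA, the ligand-binding chain for interleukin-10, an anti-inflammatory cytokine, had a log2(fold change) of 1.60 ± 0.63 in long bones (adjusted p = 0.478) and 0.91 ± 0.85 in vertebrae (adjusted p = 0.999). NOF009, at 19.05 CPM, was the highest animal. The next queen, MAF006, had 3.73 CPM, which was 1.26 CPM in vehicle and 6.33 CPM in estradiol. In vehicle libraries alone the log2(fold change) of IL10RA was 1.75 (adjusted p = 0.848).

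IL13RA2 was the only immune gene lower in queens at an FDR of 20% by edgeR. It encodes a receptor that binds interleukin-13 and is best known as a decoy. In long bones it measured 22.9 CPM in WAF014, 22.3 in LAF007, 18.2 in DVF007, 14.7 in MAF006 and 8.97 in NOF009, and in nonbreeders it ran from 12.8 through a median of 33.7 to 57.8 CPM. The groups overlapped through the helpers NOF007, the sister of NOF009, and G1F022, and the queen was the lower sister in 5 of 5 pairs, with log2 differences between -1.47 and -0.38. IL13RA2 had a log2(fold change) of -0.86 ± 0.21 (adjusted p = 0.168). In vertebrae the queen was lower in 4 of 4 pairs, though by only -0.04 in colony WA, and the log2(fold change) was -1.45 ± 0.44 (adjusted p = 0.863). The call in long bones was lost in the voom model of all libraries, where the log2(fold change) was -0.61 with an adjusted p of 0.402, and in vehicle libraries alone (edgeR), where it was -0.82 with an adjusted p of 0.558.

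The other three receptors did not pass in either bone. IL1R1, the signalling receptor of interleukin-1, had a log2(fold change) of -0.63 ± 0.32 in long bones (adjusted p = 0.630, edgeR), with MAF006 at 14.3 CPM, far below the 67.9 to 139 CPM of nonbreeders, and the other 4 queens at 63.5 to 106 CPM. IL6ST, the gp130 chain shared by the interleukin-6 family, had 0.36 ± 0.23 (adjusted p = 0.700), and IFNAR1, a chain of the type I interferon receptor, had -0.01 ± 0.27 (adjusted p = 0.992). IRF1, a transcription factor induced by interferons, had 0.23 ± 0.69 in long bones, with the sister pairs spread from -2.69 in colony LA to 2.09 in colony NO, and MAF006 had 5.45 CPM of IRF1 in vehicle and 23.5 CPM in estradiol.

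Among the remaining genes, CD1D, which presents lipids to natural killer T cells, had a log2(fold change) of 0.84 ± 0.35 in long bones (adjusted p = 0.528, edgeR) and 0.13 ± 0.50 in vertebrae (adjusted p = 0.999). MAF006 had 6.43 CPM of CD1D in vehicle and 32.6 CPM in estradiol, and in vehicle libraries alone the log2(fold change) was 0.50 with an unadjusted p of 0.175 (edgeR). TNFSF4 (OX40 ligand), a costimulatory TNF family ligand, had -0.18 ± 0.36 and -0.10 ± 0.32. CD81, a tetraspanin found on most cells, had -0.02 ± 0.15 and -0.09 ± 0.21. TNFAIP8L3, which binds and transfers phosphoinositide lipids, had 0.69 ± 0.53 and -0.21 ± 0.59. None of these 4 genes passed an FDR of 20% in either bone.

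The leukocyte reference gene LAPTM5, a lysosomal protein of blood cells, had the same sign in each of the 5 pairs as CCL8, TLR8, IL7R and IL10RA. It was higher in the long bones of MAF006, NOF009, LAF007 and WAF014 than in those of their sisters and lower in DVF007 (102 against 258 CPM), with a log2(fold change) of 1.65 ± 0.54 (adjusted p = 0.345, edgeR). The other immune genes higher in queens did not share its sign in every pair. CLEC4E and CD180 were higher in DVF007 than in her sister, by log2 differences of 0.11 and 0.71. CD1D was lower in LAF007 (-0.61), and CXCL10 had no count in colonies DV and LA. Of the 14 leukocyte genes tested, 3 had an unadjusted p under 0.05, all higher in queens, with a median log2(fold change) of 0.42, and of 10 myeloid genes tested 6 did, all higher, with a median of 1.22. At an FDR of 20% the leukocyte genes ARL11 (2.71 ± 0.57) and PARVG (1.61 ± 0.40) and the myeloid genes GPR65 and CTSS (2.93 ± 0.75) passed. The myeloid sum was 29.5 to 989 CPM in the long bones of queens and 16.3 to 277 CPM in those of nonbreeders. Of 17 stromal genes 2 were lower at an unadjusted p under 0.05 and of 6 endothelial genes 1 was, with medians of -0.44 and -0.53. COL1A1, the main collagen of bone, had -0.39 ± 0.55, and CTSK, the cathepsin of osteoclasts, had 0.42 ± 0.26 (adjusted p = 0.695). The part of blood-derived cells in the differences above was not tested.

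Other genes of the same pathways were grouped in lists that share members with each other and with the myeloid list. Among 9 other immune receptors, 3 had an unadjusted p under 0.05 in long bones, all higher in queens (GPR65, C3AR1 and NOD2, of which GPR65 and C3AR1 are also in the myeloid list, C3AR1 in complement and NOD2 among the signalling genes). Of these GPR65, a proton-sensing receptor of immune cells, passed an FDR of 20% (log2(fold change) 2.83 ± 0.53, adjusted p = 0.114, edgeR). Of 10 NF-kB and cytokine signalling genes 2 were higher at an unadjusted p under 0.05, NOD2 (1.01 ± 0.40) and N4BP1 (0.49 ± 0.21), and 8 did not pass. Of 6 interferon target genes 1 did, SAMD9L, at 0.38 ± 0.17. In complement, C3 (2.06 ± 0.55, adjusted p = 0.205) and its receptor C3AR1 (2.25 ± 0.62, adjusted p = 0.226) were higher and the lectin MBL2 lower (-0.86 ± 0.30, adjusted p = 0.392), all 3 at an unadjusted p under 0.05. In vertebrae none of the 10 signalling genes and none of the 6 interferon targets had an unadjusted p under 0.05 by edgeR, and no gene of the 11047 passed an FDR of 20%.

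The calls in long bones depended on which pairs of sisters were in the fit. With colony as a block, a sister left alone in her colony adds nothing to the difference. The 2 fits of a colony are therefore nearly the same. With each of the 16 animals left out in turn, the number of immune genes at an FDR of 20% ran from 0 to 6. Leaving out DVF007 or DVF008 gave 6, where 427 and 426 of all 11047 genes passed, against 163 with every animal. Leaving out WEF001 or WEF002 gave 4, where 160 and 145 of all genes passed. Each of the other 12 animals, when left out, gave 0. Of all genes, 46 to 61 passed without an animal of G1 or G4, and 0 without one of MA, NO, LA or WA. The adjusted p of CLEC4E ran from 0.0250 to 0.388 over these fits and its log2(fold change) from 2.32 to 3.33. For CCL8 the log2(fold change) ran from 3.23 to 4.37 and for IL13RA2 from -0.98 to -0.71. These 3 genes kept their direction in all 16 fits.

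The 8 colonies fell into 2 groups by the age of the animals, 3 colonies (DV, LA and WA) at 1003 to 1006 days and 5 colonies at 1075 to 1232 days, and several immune genes separated them. The range of colony means in long bones did not overlap for CD180, CLEC4E, CXCL10, IL7R and TLR8, which were lower in the younger colonies, 5 of 17 genes where 7.55% of all genes did the same. In vertebrae it did not overlap for CD180, CLEC4E and CXCL10, where 5.61% of all genes were lower in the younger colonies. TNFSF4 was higher in the younger colonies in long bones, 1 of 17 genes where 6.21% of all genes were. In vertebrae TNFSF4 and TNFAIP8L3 were higher there, 2 of 17 genes where 5.79% of all genes were. Counts this small are near the share of all genes. Age, time of the experiment and colony cannot be told apart here.

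CXCL10 had no count in 17 of the 20 libraries of the younger colonies and at most 2 counts in any of them, and it had none in 1 of the 27 libraries of the older ones, where the median was 2.25 CPM and the highest value 54.5 CPM. CD180 had at most 4.32 CPM in the younger colonies and at least 3.25 CPM in the older ones, with medians of 0.780 and 9.42 CPM in long bones and 0.509 and 8.91 CPM in vertebrae. For CLEC4E the medians were 1.63 and 47.4 CPM in long bones and 1.88 and 25.6 CPM in vertebrae. For TLR8 they were 0.599 and 5.52 CPM, and 0.419 and 6.12 CPM. The younger colonies were not uniformly low, since the queen WAF014 reached 40.5 CPM of CLEC4E and 5.55 CPM of TLR8 in long bones. For TNFSF4 the order was the reverse, with medians of 2.19 and 0.957 CPM in long bones and 7.03 and 4.31 CPM in vertebrae. CD81 had 853 and 721 CPM in long bones and 1002 and 847 CPM in vertebrae.

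**Figure D3:**
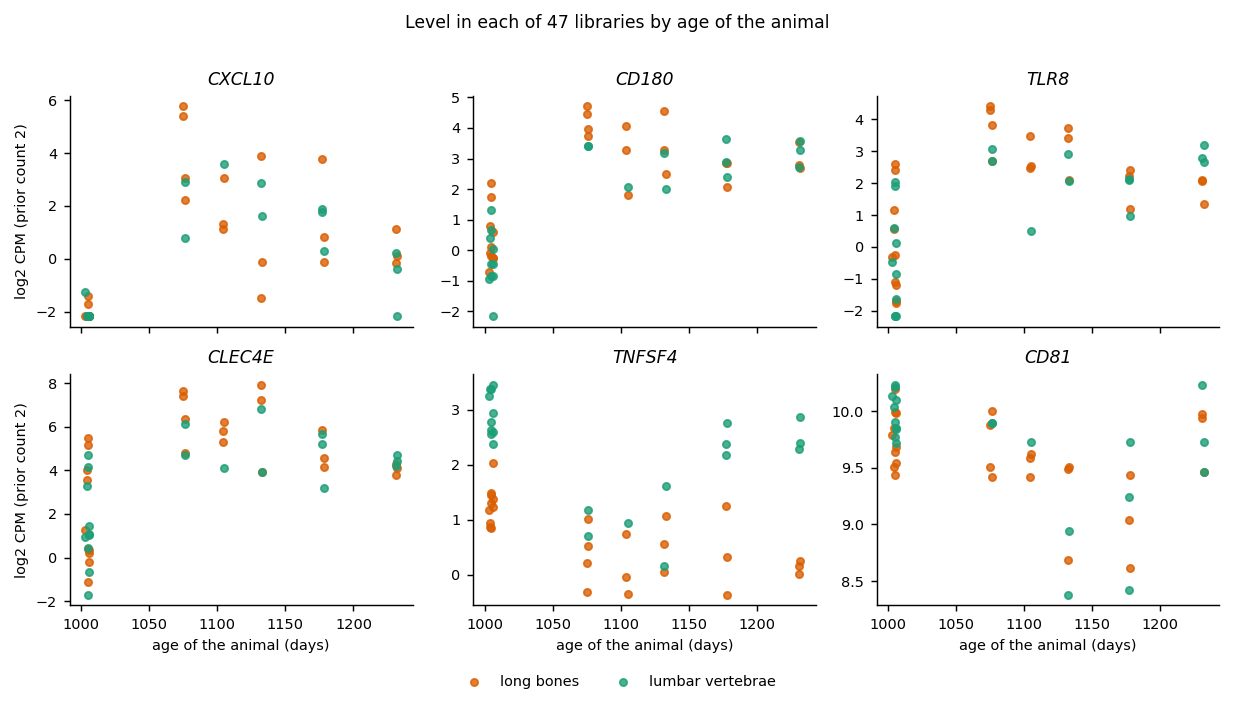
The log2 CPM of 6 immune genes in each of 47 libraries against the age of the animal in days, long bones in orange and lumbar vertebrae in green. For CXCL10, CD180, TLR8 and CLEC4E the median at 1003 to 1006 days lies below that of the older animals, and for TNFSF4 above it. Single libraries of the age groups overlap for each of these genes, and CD81 differs little with age.

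Because queens occurred in both age groups, the queen comparison was also made with the queens of each group apart. The fit for the younger queens kept the older colonies without a queen, which were G1, G4 and that of WEF001. These colonies hold no queen to compare with a sister, but their animals entered the spread behind the p-values. It was therefore not a fit of younger animals alone, whereas the fit for the older queens held older animals only. For the 3 younger colonies with a queen (long bones, colonies MA and NO left out), 5 immune genes had an unadjusted p under 0.05 by edgeR. Of all 11047 genes, 313 did. The log2(fold change) was 3.21 for CLEC4E, 3.61 for CCL8, 2.42 for TLR8, 1.73 for CD180 and -0.76 for IL13RA2, with every adjusted p at 1. For the 2 older colonies with a queen (colonies DV, LA and WA left out) it was 2.72, 4.18, 1.27, 1.19 and -0.997 for the same 5 genes, with adjusted p of 0.0852, 0.156, 0.149, 0.296 and 0.193. In this fit 1703 of all 11047 genes passed an FDR of 20%. IL7R differed more in size, 1.11 in the younger and 2.98 in the older colonies, and CD1D had 0.29 and 1.68. IRF1 had opposite signs, -0.92 and 1.78, as did TNFSF4, at 0.24 and -0.90. The difference between age groups was not tested.

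Without MAF006 and NOF009, the 2 queens with the highest leukocyte sums, their sisters add nothing to the queen difference, as colony is a block. The fit is therefore nearly the one above without colonies MA and NO. No gene of the 11047 passed an FDR of 20% in long bones by edgeR. At an unadjusted p under 0.05 there were 5 immune genes and 297 of all genes. The log2(fold change) was 3.19 for CLEC4E, 3.58 for CCL8 and -0.78 for IL13RA2. For IL7R it was 1.10. Each of these 4 values had the sign found with all animals.

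The level of each immune gene was also set against the leukocyte sum over the 8 colony means of each bone, 34 relations in all, by an exact permutation test. In long bones IL10RA was higher where the sum was higher (Pearson's r = 0.850, exact p = 0.00201, adjusted p = 0.0683; Spearman's rho = 0.833, exact p = 0.0154), and IL13RA2 was lower there (r = -0.796, exact p = 0.00724, adjusted p = 0.0821; rho = -0.810, exact p = 0.0218). Without the 2 colonies farthest from the median of the sum, r was 0.871 and -0.699. In vertebrae IL10RA had r = 0.848 (exact p = 0.00672, adjusted p = 0.0821; rho = 0.857, exact p = 0.0107), and IL13RA2 had r = -0.190 (exact p = 0.666, adjusted p = 0.816; rho = 0.0238, exact p = 0.977). Without 2 colonies these were 0.857 and 0.646. CCL8 had r = 0.0820 in long bones (exact p = 0.835, adjusted p = 0.947; rho = 0.143, exact p = 0.752; -0.227 without 2 colonies). Of the 34 relations none had an adjusted p under 0.05, and 5 in long bones and 6 in vertebrae had an unadjusted exact p under 0.05. The relation was not computed for the other genes tested. Whether these counts exceed the share over all genes is therefore not known. Those not yet given were CD1D (r = 0.880), IL6ST (r = 0.759) and IRF1 (r = 0.722) in long bones, and IL7R (r = 0.786), TLR8 (r = 0.762), CLEC4E (r = 0.755), CD180 (r = 0.724) and TNFSF4 (r = -0.750) in vertebrae, each with an adjusted exact p of 0.110. Without the 2 farthest colonies r was 0.375 for IRF1, 0.404 for IL7R and -0.482 for TNFSF4, and between 0.677 and 0.898 for the other 5. Their rho was 0.738, 0.833, 0.690, 0.50, 0.881, 0.881, 0.762 and -0.857 in the same order, with exact p of 0.0458, 0.0154, 0.0694, 0.216, 0.00724, 0.00724, 0.0368 and 0.0107. CLEC4E in long bones had r = 0.476 (exact p = 0.230). The 2 members of a colony and all libraries of an animal share their colony mean, and the list and the genes share their libraries. Averaging sisters also leaves the difference between them out of these relations. A low r, as for CCL8, therefore does not tell whether a gene followed the sum between queens and their sisters.

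Whether the effect of queen status differed between the bones was tested in the 14 animals that had both. By edgeR no immune gene passed an FDR of 20% (DESeq2 also gave 0), and 1 of 17, CD180, had an unadjusted p under 0.05, where 4.88% of all genes did (2.53% higher, 2.35% lower). The queen effect on CD180 was lower in vertebrae than in long bones by a log2 difference of -0.76 ± 0.34 (adjusted p = 0.794). For CLEC4E the difference was -0.25 ± 0.46, for CCL8 -0.43 ± 0.53 and for IL13RA2 -0.93 ± 0.51.

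The bones themselves differed in a separate set of genes. In the vehicle libraries of 13 animals with both bones, 2 of 17 immune genes passed an FDR of 10% (1 higher, 1 lower), where 6.83% of all genes did (2.79% higher, 4.05% lower), and 4 of 17 passed 20%, where 10.4% did (4.14% higher, 6.26% lower). The median log2(fold change), vertebrae against long bones, was -0.20 over the 17 genes and -0.04 over all. CLEC4E (-0.13 ± 0.28), IL7R (0.13 ± 0.27), CCL8 (-0.37 ± 0.31) and IL13RA2 (-0.24 ± 0.32) did not pass, each with an adjusted p of at least 0.582 (edgeR).

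TNFSF4 was higher in vertebrae in 13 of 13 animals. It ran from 0.565 through a median of 1.88 to 3.89 CPM in long bones and from 1.71 through 5.85 to 10.8 CPM in vertebrae. The ranges overlapped, but the lowest vertebral value, in G1F025, was still above the 0.565 CPM of her own long bones, and in LAF007 the levels were 1.71 and 10.2 CPM. TNFSF4 had a log2(fold change) of 1.69 ± 0.21 (adjusted p = 0.000103, edgeR), rank 37 of 11047 by p, and it ran from 1.59 to 1.78 with each animal left out. OX40 ligand is made by activated antigen-presenting cells and by endothelial and stromal cells.

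IL1R1 was lower in vertebrae in 11 of 13 animals, with 50.9 to 142 CPM (median 92.3) in long bones and 23.9 to 104 CPM (median 53.5) in vertebrae. The 2 exceptions, G1F025 and G4F020, both solitaires, had 94.4 and 103 CPM in long bones and 103 and 104 CPM in vertebrae. The log2(fold change) was -0.72 ± 0.13 (adjusted p = 0.00383, edgeR). CLEC1A (-0.83 ± 0.28, adjusted p = 0.125) and IL6ST (-0.36 ± 0.14, adjusted p = 0.191) were lower at an FDR of 20%, each in 10 of 13 animals. IRF1 was lower in 10 of 13 animals too (-0.53 ± 0.23) but did not pass (adjusted p = 0.261). CLEC1A lost its call without G4F019, MAF003, WEF001, DVF007, DVF008 or LAF008, and the adjusted p of IL6ST ran from 0.0618 to 0.341 over the 13 fits, above 0.20 in all but those without G4F020, WEF002, WAF011 or WAF014. IL1R1 passed in all 13.

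**Figure D4:**
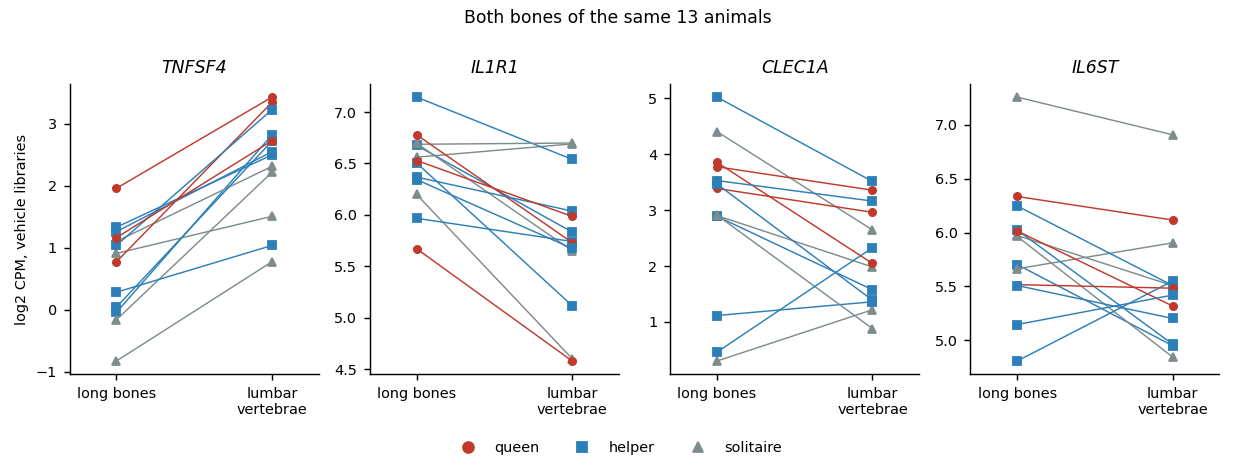
The log2 CPM of 4 immune genes in the vehicle libraries of long bones and lumbar vertebrae, with a line for each of 13 animals coloured by status. All 13 lines rise for TNFSF4, 11 of 13 fall for IL1R1, and 10 of 13 fall for CLEC1A and IL6ST.

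Leukocyte genes fell in the same comparison. Of the 14 leukocyte genes tested 11 were lower in vertebrae at an FDR of 20% and none was higher, with a median log2(fold change) of -0.86 and -1.12 ± 0.28 for LAPTM5 (adjusted p = 0.0247, edgeR), while of 10 myeloid genes 1 was lower, with a median of -0.19. Among the 10 signalling genes, NFKBIA, the inhibitor of NF-kB (-0.53 ± 0.15, adjusted p = 0.0543), and SOCS2, a feedback inhibitor of cytokine signalling (-0.92 ± 0.17, adjusted p = 0.00313), were lower and 8 did not pass. The bones differed in collagenase treatment and in leukocyte genes together, and their part in the values of IL1R1 and TNFSF4 was not tested.

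Solitaires and helpers were compared to see whether living alone, without breeding, went with a difference. Queens stayed in this fit, in which colony was a block. Only the sisters G1F025 and G1F022, G4F020 and G4F019, and WEF001 and WEF002 were a solitaire and a helper of the same colony. The sister of every other solitaire or helper was a queen, so part of the estimate ran through queens. In vertebrae G1F022 had no library, so that her pair was missing there. In long bones (4 solitaires and 7 helpers) no immune gene passed an FDR of 20% by edgeR or DESeq2, and 1 gene of 11047 (0.00905%) did by edgeR. At an unadjusted p under 0.05 there were 4 of 17, all higher in solitaires, where 8.75% of all genes were called (4.31% higher, 4.44% lower). TNFAIP8L3 measured 1.22, 2.26, 3.18 and 3.39 CPM in MAF003, WEF001, G4F020 and G1F025 and 0.501 to 1.90 CPM in helpers, with MAF003 as the solitaire within the range of helpers. Its log2(fold change) was 1.31 ± 0.43 (adjusted p = 0.522, edgeR). The other 3 were CXCL10 (1.79 ± 0.61), IFNAR1 (0.62 ± 0.26) and IL6ST (0.58 ± 0.21), the last with 160 CPM in G1F025 and 55.0 to 64.4 CPM in the other 3 solitaires, within the 41.4 to 70.3 CPM of helpers. In vertebrae (4 solitaires and 6 helpers) none of the 17 had an unadjusted p under 0.05 by edgeR or DESeq2, where 2.79% of all genes did (1.7% higher, 1.09% lower). TNFAIP8L3 had 0.64 ± 0.83 there and IL6ST -0.13 ± 0.34.

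Estradiol, the main estrogen, was added to ask whether the cells respond to it. In the 10 animals with both treatments in long bones and the 7 in vertebrae, no immune gene passed an FDR of 20% or an unadjusted p under 0.05 by edgeR, DESeq2 or the voom model, where 1.17% and 0.498% of all genes had an unadjusted p under 0.05 by edgeR. The fitted log2 differences in long bones ran from -0.34 ± 0.44 for CCL8 to 0.86 ± 0.66 for CXCL10. In vertebrae they ran from -0.54 ± 0.40 for CLEC4E to 0.42 ± 0.30 for TLR8. Errors were smallest for a few well-counted genes. CD81 had -0.04 ± 0.15 and 0.08 ± 0.14, IL7R -0.01 ± 0.20 and 0.12 ± 0.13, and IL1R1 -0.05 ± 0.16 and 0.03 ± 0.22. For IL10RA the values were 0.47 ± 0.43 and 0.02 ± 0.48, with errors wider than these. CLEC4E was higher with estradiol in 5 of 10 animals and in 3 of 7.

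Of the 17 immune genes, 7 varied more between animals than at least 96.0% of the genes tested. The standard deviation of log2 CPM over the 16 animals in long bones was 2.78 for CXCL10, 2.69 for CCL8, 2.65 for CLEC4E, 1.93 for TLR8, 1.87 for IL7R, 1.76 for CD180 and 1.61 for IL10RA, where the median of all genes was 0.49. CLEC1A, IRF1 and TNFAIP8L3 had 1.00 to 1.18, and CD1D, IFNAR1, IL1R1, IL13RA2 and TNFSF4 had 0.65 to 0.73, at percentiles of 65.9 to 72.5. IL6ST (0.47) and CD81 (0.31) lay at or below the median gene. Both had at least 156 counts in every library, whereas CXCL10, IL10RA, TLR8, CD180 and TNFAIP8L3 had none in at least 1 library, so that for these 5 the lowest values are set by few counts. The same holds for CCL8 and CLEC4E, each with 1 count in its lowest library, and for TNFSF4, with 4.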

How the data were processed

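RNA-Seq reads were trimmed by the authors with cutadapt 2.3, mapped with STAR to the DMR_v1.0 genome and counted per Ensembl gene with HTSeq; the deposited table holds raw counts of 33562 genes, and the strand setting is not given in the sources used here. Symbols came from 1594 rows of the study's gene table, from which no value was used. The immune genes and all gene lists were chosen with earlier results of these data known. Genes with at least 2 CPM in at least 25% of libraries (11047) were kept. CPM values are scaled by TMM factors. An animal's libraries were summed within a bone, vehicle and estradiol together, so some animals enter with both treatments and MAF006 enters the vertebrae with estradiol only. Comparisons used edgeR 4.0.16 (TMM, quasi-likelihood test, Benjamini-Hochberg over all genes), with colony as a block for status and animal as a block for bone and estradiol. Sisters deviated together from the status means (r = 0.191 to 0.817 over 8 pairs in long bones, 0.293 to 0.608 over 6 pairs in vertebrae). Errors are standard errors from the fit. With colony as a block, the p-values of status measure the spread between sisters within colonies. With animal as a block, those of bone and estradiol measure the spread of the differences within animals. Every immune gene is named, with LAPTM5, COL1A1 and CTSK as references and at most 4 genes of each other list by smallest p, plus those past an FDR of 20%. Alternatives were DESeq2 1.42.0 (size factors, Wald test), no filter, filterByExpr, no block, vehicle only, limma 3.58.1 voom, and leaving out each animal. The fit was tested on simulated data.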

Additional observations from a re-analysis of the deposited data

Results flagged for a closer look

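Of 119 groups of 4 to 10 animals checked for an animal that stands apart from the rest of its group (Dixon's ratio at the 95% level, which chance passes in about 1 group in 20), 11 held one, given here as log2 CPM. The queen DVF007 was lowest for CCL8 in long bones (-0.60, next queen 5.87) and in vertebrae (-0.96, next queen 5.63). Among queens NOF009 was highest for IL10RA in long bones (4.26, next 1.95), and MAF006 was highest for CXCL10 in vertebrae (2.91), where the other 3 queens had no count and she alone entered with an estradiol library only.

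IL1R1 held 3 such animals, MAF006, lowest of the queens in long bones (3.85, next 5.99), G4F019, highest of the helpers in vertebrae (6.41, next 5.85), and MAF003, lowest of the solitaires in vertebrae (4.60, next 6.46). The solitaire G1F025 was highest for IRF1 in long bones (4.07, next 2.56), for IL6ST in long bones (7.32, next 6.01) and, among all nonbreeders, for IL6ST in vertebrae (6.91, next 5.91). The helper NOF007 was lowest for TNFSF4 in vertebrae (0.88, next 2.41).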

How the results depend on the processing

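Counts are of the 17 immune genes, and those in square brackets are of all genes, 11047 unless given. Queens against nonbreeders in long bones gave 3 [163] at an FDR of 20% and 9 [960] at an unadjusted p under 0.05 (edgeR). Leaving out 1 animal gave 0 to 6 [0 to 427] and 6 to 9 [548 to 1289]. At the FDR of 20% DESeq2 gave 8 [566], voom 8 [1085] and no filter 9 [1317 of 24430]. Fits without the block for colony gave 0 [1] and, at the unadjusted p, 4 [1155]. Without a filter edgeR's prior degrees of freedom were infinite, so that a gene's own spread no longer counted. Leaving out MAF006 and NOF009, or colonies MA and NO, or colonies DV, LA and WA was chosen after seeing the data. These gave 0 [0], 0 [0] and 10 [1703] at the FDR of 20%. The first 2, which are nearly the same fit, gave 5 [297] and 5 [313] at the unadjusted p.

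In vertebrae queens gave 0 [0] and 6 [378], and 0 to 2 [0 to 49] and 3 to 7 [237 to 896] with 1 animal left out. At the FDR of 20% no filter gave 6 [453 of 23868], DESeq2 3 [128] and voom 4 [222]. Leaving out DV, LA and WA left MAF006 as the only queen there. Without the block TLR8 turned to -0.14 and CD180 to -0.75, and without DV, LA and WA IRF1 turned to 1.69; the cause was not tested. The bone difference in the queen effect gave 0 [0] and 1 [539]. With 1 animal left out it gave 0 to 1 [0 to 2305] and 0 to 2 [257 to 2513]. At the unadjusted p it gave 2 with no filter [912 of 25695] and with DESeq2 [789], and 0 without MAF006 and NOF009 [551]. Without DV, LA and WA, which left MAF006 as the only queen, TNFAIP8L3 turned to -5.56, and without MA and NO IL1R1 turned to -0.59. The bone difference has no fit without the animal.

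Solitaires against helpers in long bones gave 4 [967] at the unadjusted p. With 1 animal left out they gave 2 to 5 [773 to 1618], without the block 2 [234] and with vehicle only 2 [530]. In vertebrae they gave 0 [308], and with 1 animal left out 0 to 2 [176 to 1240], at the FDR of 20% 0 to 1 [0 to 143]. They gave 1 [172] without MAF006 and NOF009, 1 [171] without MA and NO and 2 [144 of 11046] without DV, LA and WA. Estradiol gave 0 in long bones [129] and in vertebrae [55], and 0 to 1 with 1 animal left out [82 to 508 and 31 to 166]. It gave 1 in long bones without MAF006 and NOF009 [111] or without MA and NO [108], and 1 in vertebrae without DV, LA and WA [725 of 11046].

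Vertebrae against long bones gave 4 [1148] at the FDR of 20% and 5 [1804] at the unadjusted p. With each animal left out they gave 2 to 6 [845 to 3095] and 4 to 6 [1419 to 2913]. They gave 2 [346] and 3 [1127] without the animal block, and 2 [835] and 3 [1416] without MA and NO. Voom gave 3 [1138] at the unadjusted p, and both treatments added gave 7 [3911] at the FDR of 20%. Without DV, LA and WA IL13RA2 turned to 0.57. For the leukocyte sum 0 relations passed, but 6 in long bones and 7 in vertebrae with animals as points, 1 in long bones without TMM factors, and 1 and 1 without MAF006 and NOF009. Of the genes' single values under alternatives, 2663 kept direction and side of the threshold or moved by less than the spread, 102 moved, 83 gained and 70 lost a call, and 6 reversed. Genes with few counts, such as CXCL10, are limited by depth.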
